A study of Mus musculus with 14 samples.

Results

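miR-143-3p, miR-145a, miR-199, miR-214 and miR-140 are microRNAs (miRNAs) best known from connective tissue, muscle wall and cartilage, and they were followed here through a study of macrophages. The members were chosen by name from the deposited count table. They are the lines for mmu-miR-143-3p, mmu-miR-145a-5p, mmu-miR-145a-3p, mmu-miR-199a-5p, mmu-miR-199b-5p, mmu-miR-214-3p, mmu-miR-140-3p and mmu-miR-140-5p, plus the joined line for miR-199a-3p and miR-199b-3p (called miR-199a/b-3p here), which makes 9 of 1250 lines. The study sequenced small RNA from 14 mouse samples labelled as bone marrow, from excised bone. It compared macrophages stimulated with interleukin-4 (IL4), a cytokine that drives alternative macrophage activation, with control (wild type) ones, in purified extracellular exosomes and in cell lysates. The groups were 4 IL4 exosome, 4 control exosome, 3 IL4 lysate and 3 control lysate libraries. Each IL4 library had a control library of the same title date, whereas exosomes and lysates carried different dates. The dates were 25 January, 16 March, 5 April and 29 December for exosomes, and 23 January, 14 March and 21 March for lysates, and values per library are given in that order throughout. The labels do not give the IL4 dose, its duration, the strain or how the macrophages were derived. Whether the libraries of a group stem from different mice or cultures is not stated either, and p-values therefore reflect library-to-library spread that could be technical.

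miRNAs are short RNAs that guide Argonaute proteins to messenger RNAs, and target choice rests mainly on the seed, the bases 2 to 8 from the 5′ end. miR-143 and miR-145 are processed from one cluster and are abundant in smooth muscle cells, pericytes and fibroblasts. miR-199a and miR-214 share a transcript, Dnm3os, that is active in mesenchyme, and miR-140 lies within Wwp2 and is known from cartilage. Exosomes are small vesicles that cells release with miRNAs inside, so the comparison with lysates asks how vesicle and cell content differ.

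RefSeq mature sequences (GRCm38.p6) were matched for 5 of the 10 member names, 2 of which share 1 sequence, and they show which members can be told apart by their reads. The capitals mark the seed.
miR-199a-3p and miR-199b-3p: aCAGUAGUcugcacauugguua
miR-199a-5p: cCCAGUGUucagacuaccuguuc
miR-214-3p: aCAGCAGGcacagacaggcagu
miR-140-3p: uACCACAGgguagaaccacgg
The first sequence lies in 3 genes, Mir199a-1 (chr9:21496498-21496519, minus strand), Mir199a-2 (chr1:162217883-162217904, plus strand) and Mir199b (chr2:32318524-32318545, plus strand). Its line is therefore a sum over 3 loci that cannot be split. miR-199a-5p lies in both Mir199a genes (chr9:21496537-21496559, minus strand, and chr1:162217844-162217866, plus strand). miR-214-3p lies at chr1:162223438-162223459 and miR-140-3p at chr8:107551288-107551308, both on the plus strand.

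In the GENCODE vM21 annotation of the same build, Mir199a-2 and Mir214 lay in an exon of Dnm3os, 5444 bases apart, and within an intron of Dnm3 on the opposite strand. Mir199a-1 lay in an intron of Dnm2 and Mir199b in an intron of Dnm1, each on the opposite strand. Mir140 overlapped an annotated exon of at least 1 Wwp2 transcript on the same strand.

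The 5′ arms of the miR-199 genes differ, and the Mir199b hairpin (chr2:32318460-32318569, plus strand) shows by how much. The capital marks the base that differs from miR-199a-5p.
Mir199b hairpin: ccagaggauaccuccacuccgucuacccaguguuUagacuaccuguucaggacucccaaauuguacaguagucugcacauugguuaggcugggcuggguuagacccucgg
Over the best 23-base window the only substitution was C10U, counted from 1 at the 5′ end of miR-199a-5p, so the lines for miR-199a-5p and miR-199b-5p rest on a single base outside the seed. Among mature miRNAs of the table, the seed of miR-140-3p was shared with miR-497b, which had 0 counts in IL4 exosomes, 0 in control exosomes, 1 in IL4 lysates and 15 in control lysates.

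Library size sets what can be seen. Totals over all lines ran from 50032 to 411671 counts in IL4 exosomes, from 28417 to 199025 in control exosomes, from 3941480 to 5852831 in IL4 lysates and from 5511688 to 6792079 in control lysates. One count was worth 2.43 to 35.2 CPM (counts per 1000000 counts of the library) in exosomes and 0.147 to 0.254 CPM in lysates. Lines listed at 0 in exosomes are therefore not detected at that depth, and a group's floor of 3 counts stood at 4.89 CPM in IL4 exosomes, 9.42 CPM in control exosomes, 0.201 CPM in IL4 lysates and 0.166 CPM in control lysates. Such floors and the counting intervals given for pooled counts cover counting error only.

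miR-143-3p, the abundant arm of its hairpin, was the highest member in exosomes after miR-140-3p; its gene and Mir145a lie on chromosome 18 and overlapped no other annotated gene. It had 1460, 2760, 2320 and 1120 CPM in IL4 exosomes and 2850, 3250, 2780 and 1530 CPM in control exosomes, against 330, 37.0 and 12.3 CPM in IL4 lysates and 220, 40.9 and 66.2 CPM in control lysates. Every exosome library lay above every lysate library. Means were 1916 ± 757 CPM in IL4 exosomes, 2604 ± 745 CPM in control exosomes (SD, n = 4 each), 127 ± 177 CPM in IL4 lysates and 109 ± 96.7 CPM in control lysates (SD, n = 3 each). By mean level it ranked 64 among all lines in IL4 exosomes and 60 in control exosomes, against 138 in IL4 lysates and 142 in control lysates. The opposite arm, miR-143-5p, had 4 counts in 1 IL4 exosome library, 4 in 1 control lysate library and 0 elsewhere.

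miR-145a-5p, the guide arm of the neighbouring hairpin, was much lower. It had 40.0, 147, 82.6 and 39.1 CPM in IL4 exosomes and 246, 18.4, 105.5 and 137 CPM in control exosomes, against 10.8, 5.58 and 0.779 CPM in IL4 lysates and 10.3, 1.03 and 1.63 CPM in control lysates. The exosome and lysate libraries again did not overlap, but the group sums were only 50 counts in IL4 exosomes and 34 in control exosomes. Its other arm, miR-145a-3p, summed to 8 counts in IL4 exosomes, all in 1 library, and 8 in control exosomes, against 19 in IL4 lysates and 23 in control lysates.

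The joined miR-199a/b-3p line held most of the reads of the miR-199 genes. It had 320, 522, 734 and 339 CPM in IL4 exosomes and 387, 772, 1080 and 547 CPM in control exosomes, against 50.9, 25.1 and 9.93 CPM in IL4 lysates and 51.3, 15.8 and 21.4 CPM in control lysates. No exosome library was as low as the highest lysate library. Means were 479 ± 193 CPM in IL4 exosomes, 697 ± 301 CPM in control exosomes (SD, n = 4 each), 28.7 ± 20.7 CPM in IL4 lysates and 29.5 ± 19.1 CPM in control lysates (SD, n = 3 each).

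The 5′ arms were scarce. miR-199a-5p summed to 19 counts in IL4 exosomes and 5 in control exosomes, against 50 in IL4 lysates and 71 in control lysates. miR-199b-5p, one base away from it, summed to 14 counts in IL4 exosomes and 25 in control exosomes, against 2 in IL4 lysates and 0 in control lysates. These near-identical 5′ arms were thus ordered differently, with the miR-199a form holding nearly all such reads in lysates and the miR-199b form more than the miR-199a form in control exosomes. How the authors' counting treated reads that fit both is not given in the sources used here, and with so few exosome counts the split between them is uncertain.

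miR-214-3p, which is made from the same transcript as miR-199a-2, had 79.9, 214, 38.9 and 0 CPM in IL4 exosomes and 246, 0, 100 and 0 CPM in control exosomes, against 9.06, 4.82 and 0.389 CPM in IL4 lysates and 9.39, 4.27 and 3.63 CPM in control lysates. Exosome libraries were either well above the lysates or at 0, so the compartments overlapped. Over a group these were 36 counts in IL4 exosomes, 27 in control exosomes and 74 in IL4 lysates, while the control lysates held 54, 29 and 20 counts.

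The miR-140 lines behaved apart from the other 7. miR-140-3p, the more abundant arm in many tissues, had 2240, 3740, 2950 and 2060 CPM in IL4 exosomes and 1940, 3900, 5770 and 3280 CPM in control exosomes, against 3230, 2420 and 2450 CPM in IL4 lysates and 4210, 3540 and 4100 CPM in control lysates. The compartments overlapped, and the mean level ranked 53 in IL4 exosomes and 48 in control exosomes, against 40 in IL4 lysates and 32 in control lysates. miR-140-5p, which carries a different seed, had 180, 482, 214 and 222 CPM in IL4 exosomes and 457, 202, 312 and 246 CPM in control exosomes, against 250, 250 and 205 CPM in IL4 lysates and 300, 421 and 332 CPM in control lysates. Exosomes and lysates overlapped for it, while its IL4 lysates all lay below its control lysates. By mean level miR-140-5p ranked 112 in IL4 lysates, not far above miR-143-3p at 138, and in the IL4 lysate of 23 January miR-143-3p was the higher of them. A label of stromal origin thus covers miR-140-3p, which was abundant in the macrophage lysates themselves.

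**Figure D1:**
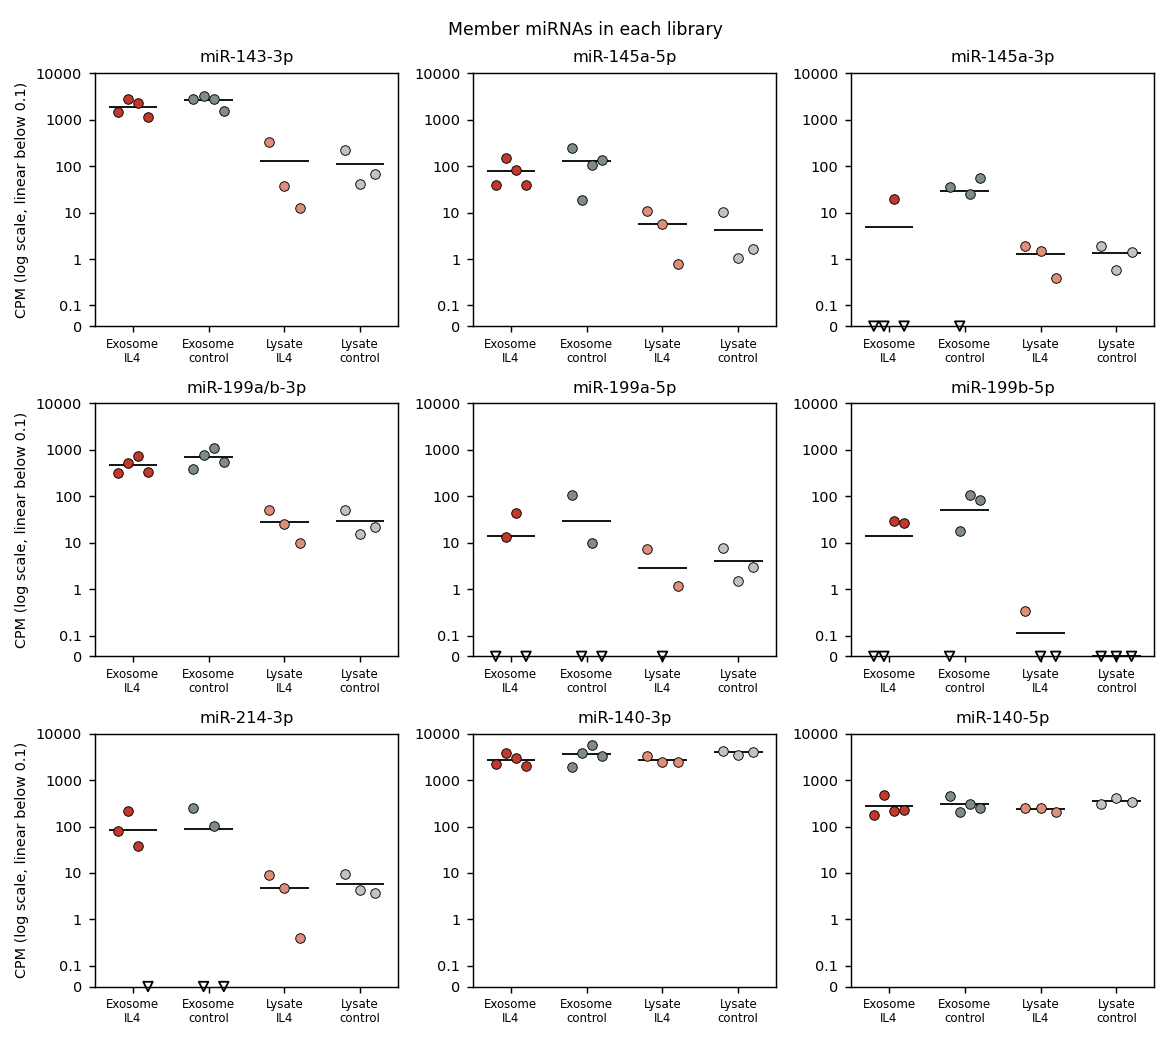
CPM of each of the 9 member lines in each library (points; log scale, linear below 0.1; open triangles at the bottom are libraries with 0 counts; bars are group means). miR-143-3p, miR-145a-5p and the miR-199a/b-3p line stood higher in all 8 exosome than in all 6 lysate libraries, while the miR-140 lines overlapped. For miR-145a-5p the lowest exosome point is 1 count. Of all lines with at least 10 counts, 39.3% did not overlap between exosomes and lysates with IL4 and 43.5% in controls.

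By group mean, miR-143-3p, miR-145a-5p and miR-199b-5p ran from control exosomes through IL4 exosomes and IL4 lysates down to control lysates. miR-145a-3p, miR-199a-5p, miR-214-3p and the miR-199a/b-3p line had the same order with the lysate groups exchanged, and the miR-140 lines ran from control lysates through control exosomes and IL4 exosomes to IL4 lysates. Neighbouring groups within a compartment overlapped for every member except the miR-140 lines in lysates, so the order between IL4 and control mostly lies within the spread between libraries.

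Exosomes were compared with lysates separately within each treatment. Of the 9 members, 6 passed the filter on low counts and entered the test over 338 lines. In controls 3 of these were higher and 2 lower in exosomes at an adjusted p of 0.05 or less, where 50.9% of all tested lines were called (29.3% higher and 21.6% lower). With IL4 4 were higher and 0 lower, where 49.4% were called (30.2% higher and 19.2% lower). With about as many lines called as not, the count of member calls says little by itself. miR-145a-5p, miR-214-3p and the miR-199a/b-3p line had at most 10.8, 9.39 and 51.3 CPM in lysates. Too few of their lysates reached the level of the filter, so they passed it only through exosome libraries. Their entry thus depended on being high in exosomes, and their calls as higher there are not independent of that selection.

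In controls, edgeR's quasi-likelihood test with Benjamini-Hochberg adjustment gave a log2 fold change of 3.92 for miR-143-3p in exosomes over lysates (SE 0.83, 95% confidence interval 2.16 to 5.69, adjusted p = 0.00123), or 15.2-fold. The same test gave 4.18 for miR-145a-5p (SE 1.02, interval 2.01 to 6.35, adjusted p = 0.00309) and 3.87 for the miR-199a/b-3p line (SE 0.51, interval 2.78 to 4.96, adjusted p = 3.55e-05). These intervals overlapped throughout, so the 3 lines are not ordered among themselves. Without the control lysate of 23 January, miR-143-3p had 4.67 and miR-145a-5p 5.53. miR-214-3p had 3.10 (SE 1.27, interval 0.38 to 5.81) with an adjusted p of 0.0541 from edgeR, which missed the threshold, although it passed with other scalings (3.43 with RLE factors, 3.81 with library size alone) and with DESeq2 (3.53, adjusted p = 0.0149). It also passed in edgeR without the control exosome library of 16 March (3.47, adjusted p = 0.0309) or of 29 December (3.4, adjusted p = 0.038), both of which had 0 counts of it. The other single-library omissions did not pass, with edgeR adjusted p from 0.0926 to 0.152; without the control exosome library of 25 January miR-214-3p had 2.51. In all it was called in 8 of 18 alternatives.

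With IL4, the edgeR log2 fold change in exosomes over lysates was 3.50 for miR-143-3p (SE 0.81, interval 1.77 to 5.23, adjusted p = 0.00267) and 3.20 for miR-145a-5p (SE 0.96, interval 1.15 to 5.25, adjusted p = 0.0122). It was 3.50 for the miR-199a/b-3p line (SE 0.50, interval 2.44 to 4.57, adjusted p = 8.49e-05) and 3.49 for miR-214-3p (SE 1.26, interval 0.80 to 6.19, adjusted p = 0.0305). All 4 were higher in exosomes with IL4, at 9.20-fold to 11.3-fold. Without the IL4 lysate of 23 January, miR-143-3p had 5.63, miR-145a-5p 3.96 and miR-199a/b-3p 4.14. The miR-214-3p call rested on single libraries: it ended without the IL4 exosome library of 16 March (2.51, adjusted p = 0.135 from edgeR), without the IL4 lysate of 14 March (3.70, adjusted p = 0.0764 from edgeR) and without that of 21 March (3.05, adjusted p = 0.101 from edgeR), and the value moved to 4.08 without the IL4 exosome library of 29 December and to 4.28 without the IL4 lysate of 23 January. The miR-145a-5p call ended when both lysate libraries of 21 March were left out (2.79, adjusted p = 0.0567 from edgeR).

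The sizes depend on the scaling. The log2 fold changes above are scaled by TMM factors, under which the median over all tested lines was -0.18 in controls and -0.01 with IL4. Scaled by library size alone, as the CPM values are, the medians were 0.63 in controls and 0.68 with IL4, and the calls among all lines shifted to 37.3% higher and 4.73% lower in controls and 37.9% higher and 3.55% lower with IL4. miR-143-3p, miR-145a-5p and the miR-199a/b-3p line were called higher in exosomes under both scalings and with RLE factors, in both treatments.

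The miR-140 lines were called lower in control exosomes under the TMM scaling alone. edgeR gave -0.89 for miR-140-3p (SE 0.27, interval -1.47 to -0.32, adjusted p = 0.0118) and -1.05 for miR-140-5p (SE 0.39, interval -1.87 to -0.22, adjusted p = 0.0344). Scaled by library size alone these were -0.07 for miR-140-3p (edgeR adjusted p = 0.908) and -0.22 for miR-140-5p (edgeR adjusted p = 0.735), and with RLE factors -0.51 for miR-140-3p (edgeR adjusted p = 0.132). The miR-140-3p call also ended without the control exosome library of 25 January (-0.42, edgeR adjusted p = 0.215), of 16 March (-0.84, edgeR adjusted p = 0.0653) or of 29 December (-0.83, edgeR adjusted p = 0.0573), and without the control lysate of 21 March (-0.78, edgeR adjusted p = 0.0878). The miR-140-5p call ended without the control exosome library of 16 March, 5 April or 29 December and without the control lysate of 14 or 21 March, with values from -1.03 to -0.78. With IL4 the values were -0.66 for miR-140-3p (SE 0.27, edgeR adjusted p = 0.0558) and -0.49 for miR-140-5p (SE 0.38, edgeR adjusted p = 0.294), and neither passed, although miR-140-3p did without both exosome libraries of 16 March (-0.91, edgeR adjusted p = 0.0437). Under library size alone these turned to 0.028 for miR-140-3p and 0.22 for miR-140-5p.

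**Figure D2:**
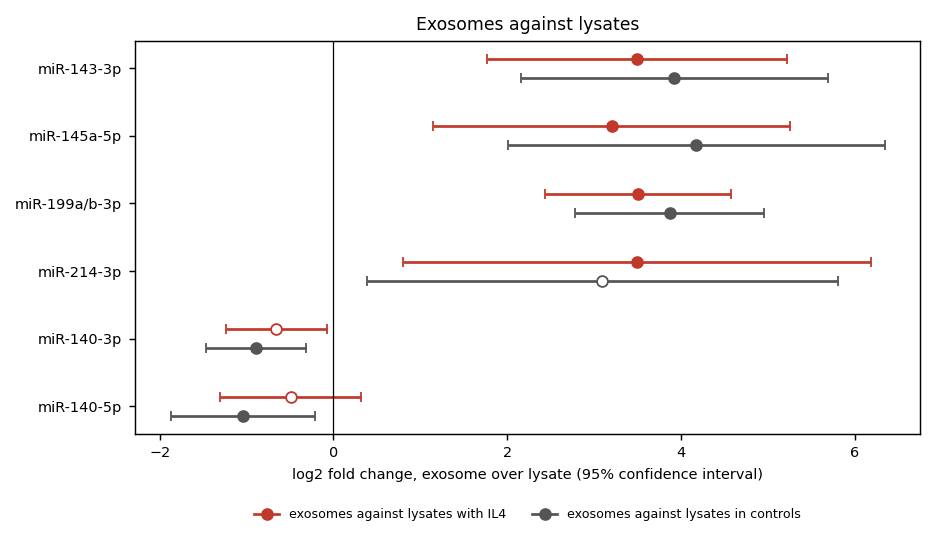
Log2 fold change of exosomes over lysates with 95% confidence intervals (edgeR, TMM factors) for the 6 member lines tested, with IL4 (red, upper of each pair) and in controls (grey, lower). Filled points passed an adjusted p of 0.05; the first 4 lines lie near 3 to 4 and the miR-140 lines between -1.05 and -0.49.

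The other 3 members had too few counts for the test and are given by their pooled counts, as a ratio of shares of the pooled totals with an exact counting interval that leaves out the spread between libraries. miR-145a-3p was at 10.3 (95% interval 3.88 to 24.5) in exosomes over lysates with IL4 and 19.7 (7.63 to 45.7) in controls. miR-199a-5p was at 9.25 (5.15 to 16) with IL4 and 3.99 (1.26 to 9.76) in controls. miR-199b-5p was at 170 (39.2 to 1550) with IL4, where lysates held 2 counts. Against 0 counts in control lysates it was at least 310-fold higher in control exosomes, a bound taken from the average CPM of those 4 libraries and a lysate floor of 3 counts over the group. All of these pooled ratios lay above 1, but they rested on few libraries. Of the 19 miR-199a-5p counts in IL4 exosomes, 18 came from 5 April, and without that library the ratio with IL4 was 1.48 (0.0368 to 8.65); without the IL4 lysate of 23 January it was 46.9 (18 to 143). In controls miR-199a-5p was at 1.75 (0.208 to 6.57) without the exosome library of 25 January, at 6.39 (1.29 to 19.4) without that of 5 April, at 7.16 (2.15 to 18.9) without the lysate of 23 January and at 2.90 (0.909 to 7.14) without that of 14 March. miR-145a-3p had 0 counts in IL4 exosomes without 5 April. miR-199b-5p had 2 counts left there, at 74.1 (5.37 to 1020), and in controls the bound was at least 201-fold without the exosome library of 5 April and at least 193-fold without the lysate of 14 March.

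Within a library the ratio of one member to another needs no scaling between libraries. miR-140-3p to miR-143-3p was 1.53, 1.35, 1.27 and 1.84 in IL4 exosomes and 0.679, 1.20, 2.08 and 2.14 in control exosomes, against 9.79, 65.4 and 199 in IL4 lysates and 19.1, 86.6 and 61.9 in control lysates. The 2 miRNAs were thus about level in exosomes, and miR-140-3p was the higher by a factor of 9.79 or more in every lysate. The mean log2 ratio was 5.08 lower in exosomes than in lysates in each treatment, and the exact two-sided permutation test gave its smallest possible p, 0.0286, which is 0.457 after Benjamini-Hochberg adjustment over 32 such ratio tests. With 4 against 3 libraries no single ratio could pass that adjustment unless many did.

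The ratio of the miR-199a/b-3p line to miR-143-3p varied most in IL4 lysates. It ran from 0.189 to 0.316 in IL4 exosomes and from 0.136 to 0.389 in control exosomes, against 0.154 to 0.810 in IL4 lysates and 0.234 to 0.385 in control lysates. The ranges overlapped, and the log2 difference of exosomes minus lysates was -0.79 with IL4 (exact permutation test, adjusted p = 0.831) and -0.23 in controls (exact permutation test, adjusted p = 1). miR-140-5p reached 7.24% to 12.9% of miR-140-3p in IL4 exosomes and 5.19% to 23.6% in control exosomes, against 7.73% to 10.3% in IL4 lysates and 7.13% to 11.9% in control lysates, again with overlap.

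**Figure D3:**
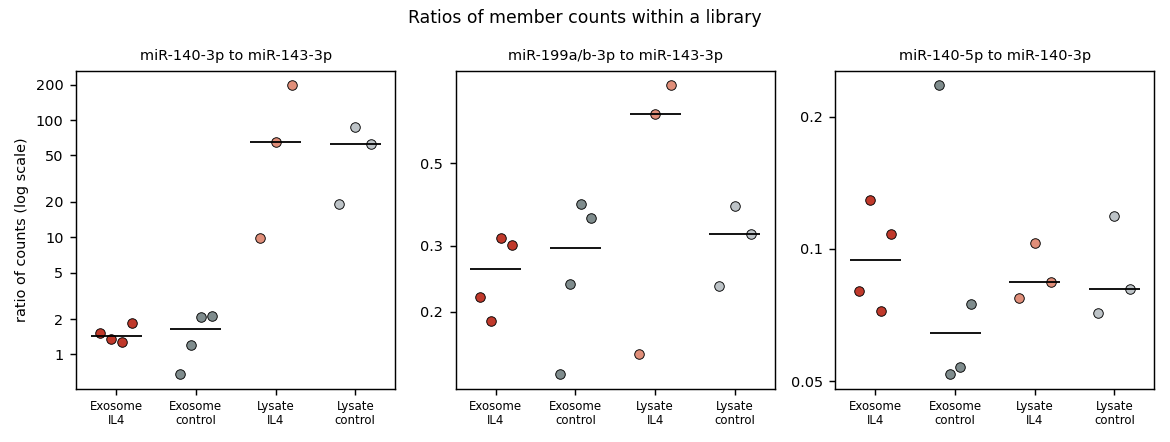
Ratios of member counts within each library (points; log scale; bars are medians) for miR-140-3p to miR-143-3p, miR-199a/b-3p to miR-143-3p and miR-140-5p to miR-140-3p. The first ratio stood between 0.679 and 2.14 in exosomes and between 9.79 and 199 in lysates, while the other ratios overlapped between compartments.

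Summed over the 7 lines without miR-140, levels were 1520 to 3660 CPM in IL4 exosomes and 2350 to 4210 CPM in control exosomes, against 24.9 to 411 CPM in IL4 lysates and 64.0 to 300.1 CPM in control lysates. Exosomes and lysates did not overlap, but the difference did not pass in either treatment (exact permutation test, adjusted p = 0.114). This sum was chosen after seeing the data and leaves out the lines that did not follow. Summed over all 9 lines, means were 5610 ± 1893 CPM in IL4 exosomes and 7649 ± 2025 CPM in control exosomes (SD, n = 4 each). They were 3106 ± 683 CPM in IL4 lysates and 4453 ± 394 CPM in control lysates (SD, n = 3 each). The miR-140 lines made up most of the lysate sum. With IL4 the 9-line sums overlapped, from 3806 CPM in exosomes and up to 3893 CPM in lysates, and in controls they did not. Neither difference passed (exact permutation test, adjusted p = 0.19).

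Other miRNAs known from connective tissue, cartilage and their progenitors were read from a list of 12, of which 8 were tested between compartments. In controls 4 were higher and 0 lower in exosomes, with a median log2 fold change of 3.74. With IL4 4 were higher and 1 lower, with a median of 2.52. Over all 338 tested lines, 29.3% were called higher and 21.6% lower in controls, and 30.2% higher and 19.2% lower with IL4. Only miR-152-3p and miR-503-5p were high enough in lysates to pass the filter on low counts there. The other tested lines of this list passed it only with exosome libraries, which largely fixed their direction in advance. miR-10b-5p, from the Hoxd cluster, had 8.89 with IL4 and 8.72 in controls, and miR-100-5p had 3.99 with IL4 and 7.99 in controls. miR-152-3p went the other way without passing, with -0.86 with IL4 and -1.07 in controls. miR-503-5p was lower in exosomes with IL4, at -1.64, and had -1.01 in controls.

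Markers of other cell types moved in the same direction, and their part in the results was not tested. The 4 erythroid lines, miR-451a among them, summed to 21800 to 30500 CPM in IL4 exosomes and 29500 to 55300 CPM in control exosomes, against 120 to 152 CPM in IL4 lysates and 117 to 211 CPM in control lysates, and all 4 were called higher in exosomes in both treatments. The 2 endothelial miR-126a lines summed to 4100 to 15900 CPM in IL4 exosomes and 6860 to 27500 CPM in control exosomes, against 13.4 to 32.6 CPM in IL4 lysates and 27.4 to 33.9 CPM in control lysates. Both lists had larger median log2 differences than any tested member, 8.47 with IL4 and 8.89 in controls for the erythroid lines and 8.2 with IL4 and 8.49 in controls for the endothelial ones. All 7 tested lines of the imprinted Dlk1-Dio3 cluster, among them miR-127-3p, which the connective tissue list holds too, were also higher in exosomes, with a median of 7.32 with IL4 and 7.98 in controls. This list summed to at most 24.4 CPM in any lysate, so its tested lines passed the filter on low counts through exosomes alone. That largely fixed their direction in advance. The endothelial lines, miR-451a, miR-144-3p, miR-144-5p, miR-10b-5p and miR-100-5p, also low in lysates, entered the test in the same way.

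The remaining lists were mixed. Of 3 muscle lines tested, 2 were higher in exosomes with IL4 and 3 in controls. Of 5 epithelial lines, 2 were higher in each treatment, and of 3 liver, gut and serum lines 1 was higher with IL4 and 2 in controls. miR-150-5p, known from lymphocytes, had a log2 fold change of 5.2 with IL4 and 5.4 in controls. miR-203-3p and miR-205-5p of the epithelial list, miR-150-5p and the muscle lines were also low in lysates and entered the test through exosomes. That largely fixed their direction in advance too. The 9 myeloid lines, which check the labelled cell type, summed to 21200 to 31600 CPM in IL4 exosomes and 32500 to 44300 CPM in control exosomes, against 23900 to 24800 CPM in IL4 lysates and 31600 to 35500 CPM in control lysates. Of the 9 lines, 7 to 9 had a count in each exosome library and 9 in each lysate. Of these lines, 1 was higher and 3 lower in exosomes with IL4, with a median of -0.44, and 0 higher and 4 lower in controls, with a median of -0.82. In bulk libraries such as these, fewer cells or vesicles of a type and less RNA per cell cannot be told apart.

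The lysate libraries of 23 January stood apart for most members. miR-143-3p averaged 275 CPM in the 2 lysates of that date and 39.1 CPM in the 4 lysates of the other dates, a factor of 7.03. The factor was 5.30 for miR-199a-5p, 4.66 for miR-145a-5p, 2.83 for the miR-199a/b-3p line, 2.81 for miR-214-3p and 1.92 for miR-145a-3p. For these 6 members both libraries of that date, IL4 and control, lay above all 4 others. The miR-140 lines did not follow, at factors of 1.19 for miR-140-3p and 0.91 for miR-140-5p.

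Over 435 lines with at least 60 counts in lysates, 29.2% had both 23 January libraries above the other 4, the median factor was 1.22, and 13 lines (2.99%) reached a factor of 3. For summed lists, the factor was 1.24 for all 9 members, 5.46 for the 7 without miR-140, 1.05 for the other connective tissue list, 1.05 for the myeloid list, 1.09 for the erythroid list and 1.44 for the endothelial list. Single lines of these lists also had both libraries of that date above the other 4, among them miR-144-3p (erythroid) at 4.48, miR-155-5p (induced in activated macrophages) at 3.25, miR-503-5p at 1.91 and miR-455-3p at 1.76. These were named after their values were seen. In all, such lines were 2 of 12 other connective tissue, 2 of 9 myeloid, 1 erythroid and 0 of 2 endothelial lines. miR-342-3p (myeloid) at 0.464 and miR-152-3p at 0.725 had both libraries below the other 4. The factor was 0.409 for the liver, gut and serum list and 0.013 for the Dlk1-Dio3 list, whose sum was 0.171 CPM in the IL4 and 0.174 CPM in the control lysate of that date and 3.89 to 24.4 CPM in the other lysates. Without both lysates of 23 January the edgeR log2 fold change of exosomes over lysates was 5.62 with IL4 and 4.74 in controls for miR-143-3p, 3.93 with IL4 and 5.60 in controls for miR-145a-5p, and 4.13 with IL4 and 4.40 in controls for the miR-199a/b-3p line, so these calls did not rest on that date.

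**Figure D4:**
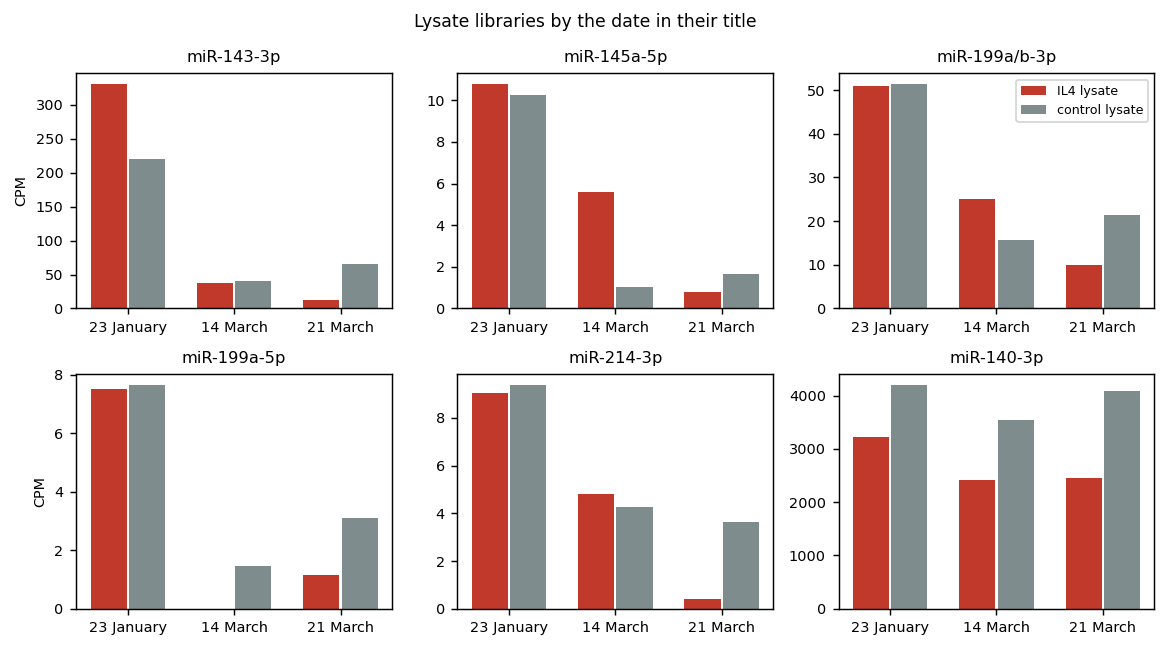
CPM in each lysate library by title date for 6 member lines, IL4 (red) left of control (grey). At 23 January miR-143-3p had 330 CPM in the IL4 and 220 CPM in the control lysate, above 12.3 to 66.2 CPM at the other dates, while miR-140-3p did not stand apart.

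IL4 was compared with control within exosomes, where 4 of 9 members passed the filter on low counts. None of the 4 was called by edgeR, against 0.549% of the 182 lines tested. An unadjusted p under 0.05 was found for 0 members and 12 of the 182 lines, and DESeq2 called 0 members and 6 lines. The log2 fold change was -0.29 for miR-143-3p (SE 0.30, interval -0.97 to 0.39), -0.39 for the miR-199a/b-3p line (SE 0.36, interval -1.19 to 0.42) and -0.28 for miR-140-3p (SE 0.31, interval -0.97 to 0.41), each with an edgeR adjusted p of 0.862. The median over all tested lines was -0.09. miR-140-5p was at -0.01 (SE 0.44, edgeR adjusted p = 0.993).

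Paired by date, miR-143-3p was lower in IL4 than in control exosomes at 4 of 4 dates, at 0.512, 0.848, 0.837 and 0.732 of the control CPM. The miR-199a/b-3p line was also lower at 4 of 4 dates, at 0.826, 0.676, 0.679 and 0.620 of the control CPM. With the date as a block neither line passed, at -0.31 for miR-143-3p (edgeR adjusted p = 0.446) and -0.38 for the miR-199a/b-3p line (edgeR adjusted p = 0.416). Most lists of other cell types had negative medians too, among them -0.65 for the other connective tissue list, -0.51 for the erythroid and -0.55 for the endothelial list, with 0 lines called in each. The myeloid list had a median of -0.22, with 1 line called higher. The epithelial list went the other way, at 1.51 from 2 tested lines.

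Members below the filter in exosomes are given as pooled counts, IL4 over control. The ratio was 0.764 (95% counting interval 0.484 to 1.22) for miR-145a-5p, 0.519 (0.17 to 1.59) for miR-145a-3p, 1.97 (0.713 to 6.76) for miR-199a-5p and 0.692 (0.409 to 1.19) for miR-214-3p, and these intervals all include 1. Without the IL4 library of 16 March miR-214-3p was at 0.438 (0.233 to 0.811) and without that of 5 April at 1.17 (0.623 to 2.17). Without the IL4 library of 5 April miR-199a-5p was at 0.316 (0.00668 to 2.83), and without the control library of 25 January it was at 4.49 (1.08 to 39.8) and without that of 5 April at 1.23 (0.363 to 6.51). miR-199b-5p was at 0.291 (0.14 to 0.581), from 14 counts in IL4 and 25 in control exosomes. By library miR-199b-5p had 0, 0, 29.1 and 26.1 CPM in IL4 exosomes and 0, 18.4, 105.5 and 82.0 CPM in control exosomes. The groups overlapped, and the interval does not cover the spread between libraries. Without the control library of 5 April the ratio was 0.681 (0.214 to 2.84), and without the IL4 library of that date 0.126 (0.0145 to 0.507).

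In lysates 7 of 9 members passed the filter and none was called by edgeR, against 7.22% of the 443 lines tested (5.87% higher and 1.35% lower). One member had an unadjusted p under 0.05, as did 63 of all 443 lines, so this is near the share over all lines. DESeq2 called 0 members and 42 lines. That member was miR-140-3p, with a log2 fold change of -0.36 (SE 0.15, interval -0.69 to -0.02, edgeR adjusted p = 0.306). It was lower in IL4 than in control lysates at 3 of 3 dates, at 0.769, 0.684 and 0.597 of the control CPM, and the groups did not overlap. miR-140-5p was at -0.40 (SE 0.23, edgeR adjusted p = 0.556), also without overlap and lower at 3 of 3 dates. In all, 2 members had groups that did not overlap in CPM in lysates, where 18.9% of the 768 lines with at least 10 counts did the same.

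The other members varied more between lysate dates than between treatments. The log2 fold change was 0.36 for miR-143-3p (SE 1.01, interval -1.97 to 2.68, edgeR adjusted p = 0.958), 0.62 for miR-145a-5p (SE 0.94), 0.14 for the miR-199a/b-3p line (SE 0.53), -0.26 for miR-199a-5p (SE 1.04) and -0.12 for miR-214-3p (SE 0.77). The IL4 to control ratio of miR-143-3p was 1.5 at 23 January, 0.905 at 14 March and 0.185 at 21 March. Its direction turned with the date as a block (-0.37, edgeR adjusted p = 0.725) and without the 23 January lysates (-0.98, edgeR adjusted p = 0.217). miR-145a-3p, below the filter, had a pooled ratio of 0.999 (counting interval 0.514 to 1.92).

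**Figure D5:**
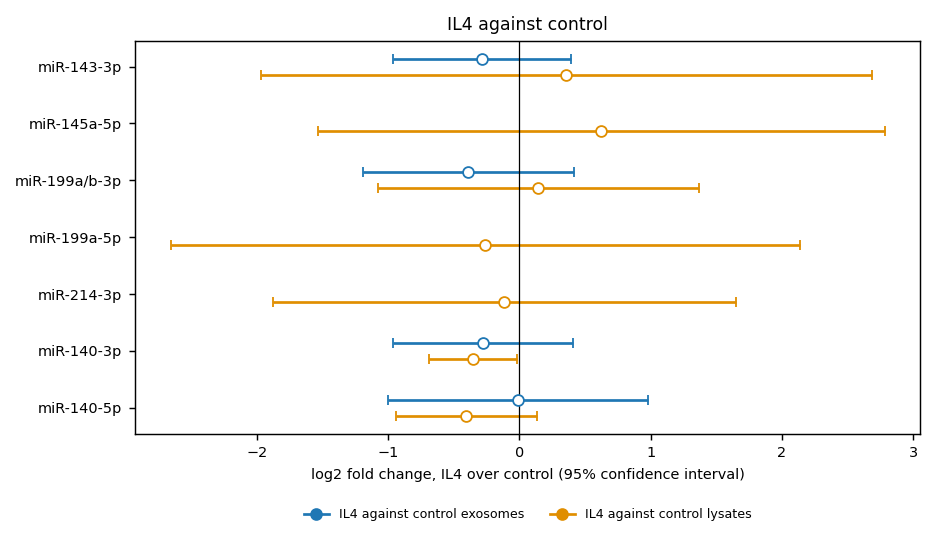
Log2 fold change of IL4 over control with 95% confidence intervals (edgeR) for the member lines tested, in exosomes (blue, upper of each pair) and in lysates (orange, lower). Open points did not pass an adjusted p of 0.05, which holds for every line drawn; intervals are widest in lysates for the lines other than miR-140.

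The IL4 effect in exosomes was set against that in lysates by an interaction term over 338 lines. None of the 6 members tested was called by edgeR, where 0% of all lines were called and 14 had an unadjusted p under 0.05, with 0 among members. DESeq2 called 0. The difference of the log2 fold changes was -0.43 for miR-143-3p (SE 1.0), -0.98 for miR-145a-5p (SE 1.27), -0.37 for the miR-199a/b-3p line (SE 0.62), 0.40 for miR-214-3p (SE 1.65), 0.24 for miR-140-3p (SE 0.38) and 0.55 for miR-140-5p (SE 0.55). The errors of miR-145a-5p and miR-214-3p exceed 1 on the log2 scale, which is the limit of what this comparison resolves for them.

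Among the 338 tested lines, the profile over the 14 libraries nearest to miR-143-3p was that of the miR-199a/b-3p line, at a root mean square distance of 0.70 on the centred log2 scale, followed by miR-145a-5p at 1.08 and miR-335-3p at 1.21. The median over all lines was 2.70. Nearest to the miR-199a/b-3p line were miR-143-3p and then miR-486a-3p and miR-486b-3p, near-copies with the same values, at 0.89. Nearest to miR-140-3p were miR-674-3p at 0.30, miR-16-5p at 0.31 and miR-107-3p at 0.31, with a median over all lines of 1.45. miR-143-3p and miR-199a/b-3p were thus each nearest to the other, and miR-140-3p was nearest to lines outside the members. These distances describe the same libraries, whose split into exosomes and lysates all lines share.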

How the data were processed

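The deposited table holds raw counts for each mature miRNA (1250 lines, no normalization by the authors) in 8 exosome and 6 lysate libraries. The labels' protocols name debris removal by spinning, an OptiPrep density gradient for exosomes and a NextFlex small RNA library kit from PerkinElmer. The submitters' processing notes name cutadapt and mm10. For the aligner, counting program, miRNA annotation and strand setting, the sources used here say nothing. Adapter trimming and the handling of reads that match several miRNAs set which line a read reached, which bears on miR-199a-5p and miR-199b-5p. Columns were matched by sample title, and 0 were left unused.

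Tests used edgeR 4.0.16 (R 4.3.3) with filterByExpr, TMM factors and a two-sided quasi-likelihood test (glmQLFit and glmQLFTest), Benjamini-Hochberg adjustment over all lines tested and a threshold of 0.05; standard errors were derived from the F statistic. IL4 was compared with control within exosomes and within lysates, and the other comparisons used 1 fit of all 14 libraries, so comparisons that share libraries are not independent. CPM are counts per 1000000 counts of the library. Ratios within a library had 0.5 added to each count for tests. Pooled ratios have exact 95% intervals. Same-date libraries deviated together in every pair (correlations 0.185 to 0.724 over 182 lines in exosomes and 0.256 to 0.611 over 443 lines in lysates), so dates pair IL4 with control. No 2 libraries of a group agreed within sampling noise (a chi-square of at least 21.0 for each degree of freedom). The steps were tested on simulated data. Alternatives were DESeq2 1.42.0, RLE factors, library size alone, no filter, other sets of libraries, the date block and leaving out each library or date. Those by date, the sum without miR-140 and the pooled ratios without 1 library were chosen after seeing the data. The lines described are the 9 members, and the few others named are the 3 nearest profiles and members of the marker lists. The members and the lists were chosen with earlier results of these data known.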

Additional observations from a re-analysis of the deposited data

Results flagged for a closer look

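In 3 of 20 sets of 4 exosome values, the summed level included, 1 library stood far from the others by the cutoff of Dixon's test at the 95% level. The usual rate of about 1 in 20 by chance assumes normally distributed, independent values. Many of these sets hold 0s or very low counts, so that rate does not apply here and the flags are descriptive. miR-145a-3p had 19.4 CPM in the IL4 exosome library of 5 April and 0 in the other 3 IL4 exosome libraries, which were smaller. With 3 values at 0 this flag was fixed in advance. miR-199a-5p had 105.6 CPM in the control exosome library of 25 January, from 3 counts in the smallest library. miR-140-5p had 482 CPM in the IL4 exosome library of 16 March, against 180 to 222 CPM in the other 3.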

How the results depend on the processing

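Of the members, 5 were called between exosomes and lysates in controls (50.9% of all lines), 8 with no filter on low counts (19.8%), 3 with only the 2 groups compared (47.3%), 8 without both exosome libraries of 16 March (41.0%) and 8 without both of 29 December (47.7%). Without 1 library in turn the count in controls was 4 to 6, where 42.4% to 48.7% of all lines were called. With IL4, 4 members (49.4% of all lines) became 3 to 5, where 37.7% to 47.5% of all lines were called. IL4 calls and calls of the unequal IL4 effect among members were 0 under every alternative run, the date block included. Over all lines, the count of IL4 calls in exosomes was 1 and ran from 0 to 12, and in lysates it was 32 and ran from 0 to 50 (50 with the date block, 14 with library size alone, 4 with all 14 libraries in 1 fit).

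Directions that turned were those of differences that were not called. For IL4 in exosomes, miR-140-5p (-0.01) was 0.065 with RLE factors, 0.13 with no filter, 0.078 with DESeq2, 0.058 with all 14 libraries, and 0.41, 0.20 and 0.18 without 25 January, 5 April and 29 December; miR-140-3p was 0.071 without 5 April. Without 1 library in turn, miR-140-5p ran from -0.22 to 0.42, miR-140-3p from -0.31 to 0.13, miR-143-3p from -0.32 to 0.033 and miR-199a/b-3p from -0.56 to 0.014. For IL4 in lysates, miR-143-3p was -0.37 with the date block and -0.98 without 23 January, miR-199a/b-3p -0.037 with library size alone and -0.15 without 14 March, and miR-214-3p 0.18 without 21 March. Without 1 library in turn, miR-143-3p ran from -1.83 to 1.21, miR-145a-5p from -0.14 to 2.12, miR-199a/b-3p from -0.45 to 0.66, miR-199a-5p from -2.25 to 0.42 and miR-214-3p from -0.92 to 0.34. For exosomes over lysates with IL4, library size alone gave 0.028 for miR-140-3p and 0.22 for miR-140-5p. With TMM factors these were -0.66 (edgeR adjusted p = 0.0558, near the threshold) for miR-140-3p and -0.49 for miR-140-5p. The unequal IL4 effect was 0.24 with the date block and 0.88 without 23 January for miR-143-3p, and -1.10 without the exosomes of 16 March for miR-214-3p; without 1 library in turn, miR-143-3p ran from -1.24 to 1.76, miR-199a/b-3p from -0.83 to 0.27, miR-214-3p from -0.55 to 1.20 and miR-140-3p from -0.091 to 0.53. Some of these fits also held fewer libraries or lines, and the cause of the changes was not tested. In exosomes 1 count was worth 2.43 to 35.2 CPM, which limits the members with few counts.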
